A study of Mus musculus with 6 samples.

Results

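The ATF4 pathway factors and the ATF4 target Asns were described in pro-B cells, the bone marrow precursors in which the immunoglobulin heavy chain gene is assembled. The 9 genes are Atf4, Atf5, Atf3, Ddit3, Trib3, Chac1, Asns, Cebpb and Nupr1. They were found by gene name among the 54658 names of the deposited tables, and took 10 of 54752 gene identifiers because Ddit3 stands on a pair of overlapping identifiers. They were selected on their FPKM in these same 6 libraries, with the difference between the genotypes known, so their levels and fold changes are a description, and no p-value is given for them. The samples came from Skiv2lfl/fl-Cd79a-Cre mice (Skiv2l-deleted, n = 3) and from Skiv2lfl/fl mice for which no Cre is named (control, n = 3). The mice were adult C57BL/6, with 1 messenger RNA library per sample of bone marrow pro-B cells, numbered 1 to 3 within a genotype as the labels number them. Skiv2l encodes the helicase of the cytosolic SKI complex, which passes messenger RNA to the exosome for decay, and Cd79a-Cre is a driver that acts in the B lineage. Both groups carry the floxed alleles and Cre is named in the Skiv2l-deleted mice alone, so effects of Cre and of Skiv2l loss cannot be told apart.

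ATF4 is a basic leucine zipper (bZIP) transcription factor. Its messenger RNA carries upstream reading frames that limit its translation until kinases of the integrated stress response phosphorylate the initiation factor eIF2, so the level of ATF4 protein can change with little change of the transcript. ATF4 pairs with other bZIP proteins, C/EBP family members among them, on the C/EBP-ATF response element (CARE), which stands in the promoters of many genes of amino acid synthesis, transport and stress signalling. Transcript levels alone are reported here, and neither eIF2 phosphorylation nor ATF4 protein was measured.

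Values are FPKM, which divides the reads of a gene by its transcript length and by the depth of the library, as the authors deposited them. The libraries corresponded to 1.86, 2.0 and 2.40 Gb of aligned bases in Skiv2l-deleted cells and to 1.96, 1.85 and 1.74 Gb in controls, and 12975 to 13738 genes per library reached 1 FPKM. Genotype separated the libraries along the leading principal component (44.3% of variance). A second component (33.1%) set Skiv2l-deleted 2 and control 3 apart from the other 4 libraries. Those libraries also held the most myeloid RNA. The 16 myeloid markers summed to 437, 3594 and 110 FPKM in Skiv2l-deleted libraries and 187, 542 and 1950 FPKM in controls. All 12 pro-B markers were above 0 in every library and summed to 4620 to 5739 FPKM in Skiv2l-deleted cells and 3171 to 4368 FPKM in controls. Igll1, Vpreb1 and Dntt averaged 1229, 857 and 723 FPKM in Skiv2l-deleted cells and 508, 361 and 259 FPKM in controls. They and Rag1 were called higher (limma adjusted p below 0.05), Cd79a was called lower and 7 did not pass. Cd79a averaged 392 FPKM in Skiv2l-deleted cells and 702 FPKM in controls. The sums thus do not show that the pro-B cells were alike. The part of these differences in the comparisons below was not tested. The 10 plasma cell markers summed to 595 to 639 FPKM in Skiv2l-deleted cells and 854 to 1030 FPKM in controls. Of these 10, Tnfrsf17 was listed at 0 in all Skiv2l-deleted libraries, Jchain in Skiv2l-deleted 1 and Igha in Skiv2l-deleted 2. Igha averaged 0.129 FPKM in Skiv2l-deleted cells and 253 FPKM in controls, and Jchain 0.105 FPKM and 52.2 FPKM. Mzb1, the largest part of the sums in Skiv2l-deleted cells, went the other way, at means of 347 FPKM there and 241 FPKM in controls. For the 8 erythroid markers the sums were 9.13, 221 and 4.86 FPKM in Skiv2l-deleted cells and 9.29, 9.12 and 16.1 FPKM in controls. The 9 T and NK cell markers summed to 24.1, 44.4 and 14.1 FPKM in Skiv2l-deleted cells and 5.79, 6.73 and 18.8 FPKM in controls. Klrb1c and Nkg7 made up most of these sums. Klrb1c averaged 11.2 FPKM in Skiv2l-deleted cells and 2.9 FPKM in controls. None of the other markers, Cd3e, Cd3d and Cd3g among them, exceeded 1.54 FPKM, the level of Trac in Skiv2l-deleted 1. Skiv2l itself stood at 9.53, 16.1 and 10.9 FPKM in Skiv2l-deleted cells and 25.4, 20.2 and 46.3 FPKM in controls, with no overlap, at a log2 fold change of -1.21 ± 0.32 (SE, limma adjusted p = 0.063). Which exons the deletion takes is not stated in the labels. In such bulk libraries, fewer cells of a type and less RNA per cell cannot be told apart.

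ATF4 is known to act through the CARE, so the promoters of the members were searched for its letters, and the stretches that hold them are shown before the levels. RefSeq promoters of build GRCm38.p6, 250 bases before to 50 after each gene's start, were found for all 9 members, with 2 promoters for Atf5. They were searched on both strands for the CARE, spelled TGATGNAA, and for the cAMP response element (CRE), spelled TGACGTCA, whose first 5 letters TGACG were searched separately and are also counted within a full CRE. A CARE match stood in 5 of the 9 members (55.6%), which are Asns, Chac1, Trib3, Atf3 and Nupr1. The stretches around these matches follow, 5′ to 3′ on the strand of the gene, with the match in capitals. Where the match lies on the other strand the capitals read as its reverse complement.
Asns (chr6:7693210-7693257, minus strand): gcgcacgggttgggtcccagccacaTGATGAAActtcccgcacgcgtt
Chac1 (chr2:119351024-119351081, plus strand): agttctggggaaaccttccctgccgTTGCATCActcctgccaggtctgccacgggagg
Trib3 (chr2:152344028-152344057, minus strand): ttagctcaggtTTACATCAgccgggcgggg
Atf3 (chr1:191183411-191183468, minus strand): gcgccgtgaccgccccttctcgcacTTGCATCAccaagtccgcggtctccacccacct
Nupr1 (chr7:126625548-126625605, minus strand): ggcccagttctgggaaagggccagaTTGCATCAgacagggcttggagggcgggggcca
Chac1, Atf3 and Nupr1 share the same 8 letters, TTGCATCA, whereas Asns and Trib3 each differ from them. Counted from the RefSeq start, the match began at -23 in Asns, -193 in Chac1, 15 in Trib3, -110 in Atf3 and -110 in Nupr1, on the strand of the gene in Asns and on the other strand in the rest. The RefSeq start need not be the outermost start of the gene as the deposited tables place it. It lies 34706 bases inside the gene in Atf3 and 5391 bases inside it in Nupr1, and 45 bases inside in Asns, 13 inside in Chac1 and 28 outside in Trib3.

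The windows of Atf4, Atf5, Ddit3 and Cebpb hold no stretch of these letters, which says nothing of sites outside the window or of other spellings. The same 8-letter search found a match in 13 of 42 other ATF4 targets with a promoter (31%). Of these, Pycr1, Slc1a4, Iars, Jdp2, Gars and Tars rose. Got1, Slc7a11, Herpud1, Aars and Yars did not pass the threshold described below, and Fgf21 and Vldlr were not tested. The search found a match in 231 of 8723 tested genes with a promoter (2.65%), which leave out Atf3 and Nupr1. Among all 27025 genes with a promoter, 1219 held one (4.51%), and counted by promoter it was 1304 of all 32851 (3.97%). No member promoter held the full CRE, which 2.03% of all 27025 genes with a promoter held. The letters TGACG stood in 6 of 9 members (66.7%) and in 36.9% of tested genes with a promoter. Members and targets were listed as genes of the ATF4 pathway, so their shares beside those of all genes are a description and no test. These matches describe letters and not binding, which was not measured.

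**Figure D1:**
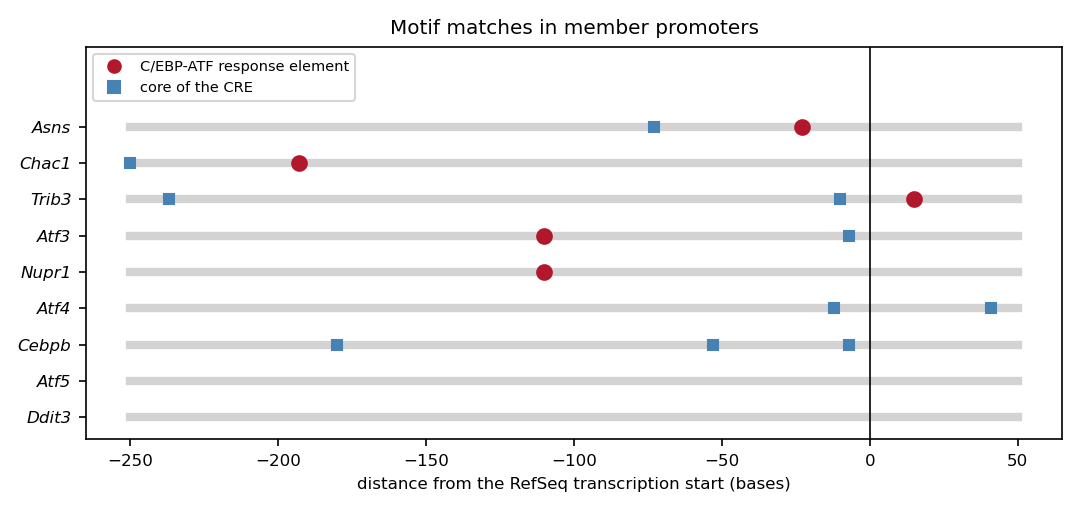
Motif matches in the RefSeq promoters of the 9 members, with the distance from the gene's start in bases on the horizontal axis and 1 row per member, both Atf5 promoters on the same row. Circles mark the CARE and squares the core of the CRE (TGACG), on either strand, and the circles stand in the rows of Asns, Chac1, Trib3, Atf3 and Nupr1 alone.

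Asparagine synthetase, the trio of stress-response genes Trib3, Chac1 and Atf5, and Ddit3 were higher in Skiv2l-deleted cells, whereas the Atf4 transcript itself overlapped between the genotypes. Cebpb followed single libraries and not the genotype. The difference between genotypes was fitted across all genes with limma on log2(FPKM + 1), and a gene passed at an adjusted p below 0.05. Of the 9 members, 7 reached the filter of 1 FPKM in at least 3 libraries, and Atf3 and Nupr1 did not. Past the threshold were 5 higher members and 0 lower, with the same counts at an unadjusted p below 0.05, against a background of 8.84% of 13539 tested genes called, 4.97% higher and 3.87% lower. With libraries scaled to a common median, the split of all called genes was 528 higher and 704 lower, in place of 673 higher and 524 lower, and this scaling shifted the median of all genes by -0.082 on the log2 scale. Because this contrast chose the members, nothing is read from their count. Levels of 7 of the 9 members did not overlap between the groups, all higher in Skiv2l-deleted cells. The same held for 19.9% of tested genes and for 13.3% of the 28354 genes listed above 0 in any library.

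**Figure D2:**
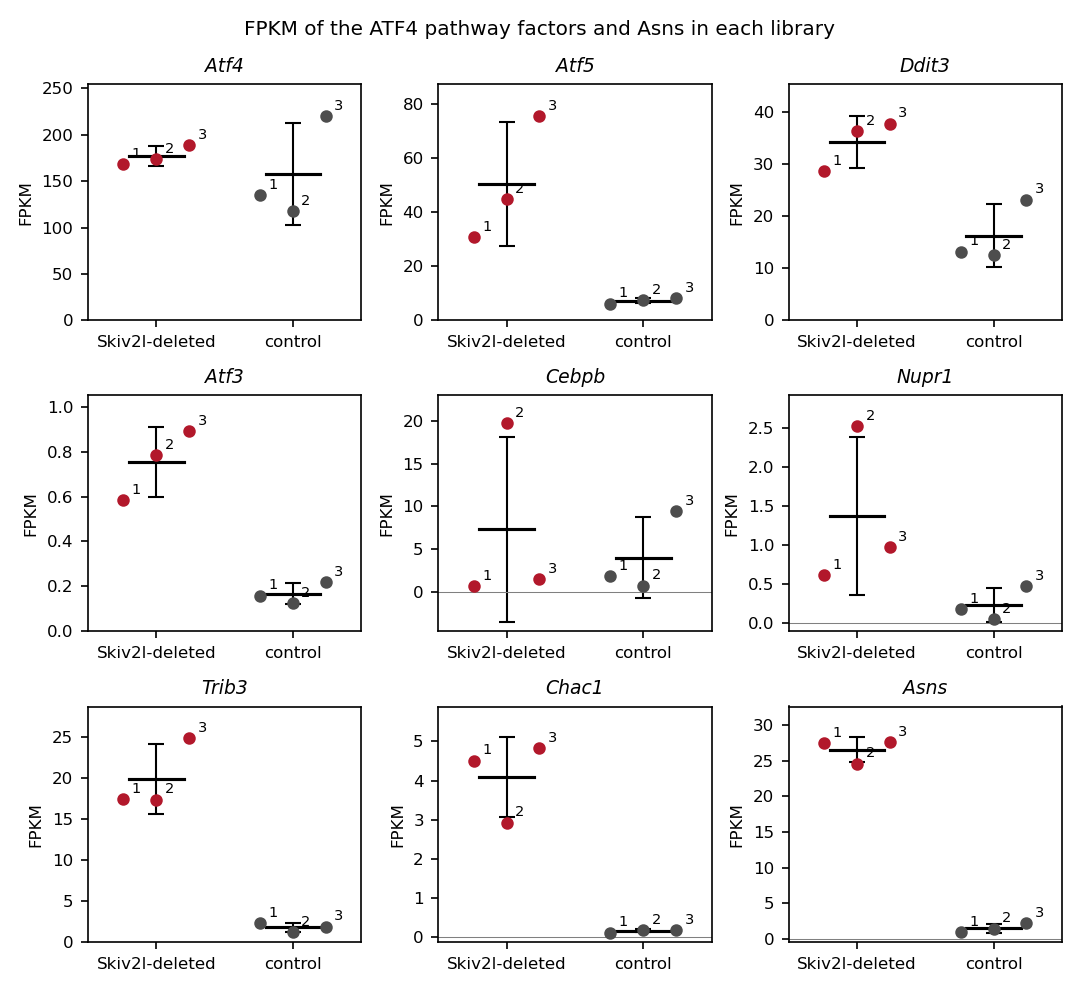
FPKM of the 9 members in each library, 1 panel per gene on its own linear axis, with Skiv2l-deleted libraries on the left, controls on the right and the library number beside each point. Bars give the mean and SD of 3 libraries, and the groups overlap in the panels of Atf4 and Cebpb alone.

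Atf4 (ENSMUSG00000042406.8, chr15:80255184-80257541, plus strand, GRCm38) stood at 168, 174 and 189 FPKM in Skiv2l-deleted cells and at 135, 118 and 220 FPKM in controls. The Skiv2l-deleted libraries lay close together, above 2 controls and below control 3, so the groups overlapped. Means were 177 ± 10.6 FPKM in Skiv2l-deleted cells and 158 ± 54.4 FPKM in controls (SD, n = 3 each), and the log2 fold change of 0.22 ± 0.22 (SE) did not pass the threshold. Control 3 decides that call. Without it the log2 fold change was 0.48 and passed, and with neither Skiv2l-deleted 2 nor control 3 it was 0.49 and passed. Atf4 was the most abundant member in both groups.

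Atf5 (ENSMUSG00000038539.15, chr7:44812256-44816658, minus strand) encodes a bZIP factor whose translation, like that of ATF4, is controlled by upstream reading frames. Its level was 30.8, 44.7 and 75.4 FPKM in Skiv2l-deleted cells and 6.18, 7.47 and 8.3 FPKM in controls. Every Skiv2l-deleted library lay above every control, and the spread within the Skiv2l-deleted group was wide. Means were 50.3 ± 22.8 FPKM in Skiv2l-deleted cells and 7.32 ± 1.07 FPKM in controls (SD, n = 3 each), a ratio of 6.87 and a log2 fold change of 2.54 ± 0.30 (SE). The gene overlaps Nup62, a nuclear pore gene on the opposite strand, and the labels do not say whether the quantification used strand. Nup62 stood at 75.8, 66.4 and 76.6 FPKM in Skiv2l-deleted cells and 82.8, 89.4 and 74.2 FPKM in controls, groups that overlapped. The ratio of the FPKM of Atf5 to its scaled coverage, which moves with the lengths of the isoforms assigned, was 1.1, 1.19 and 1.31 in Skiv2l-deleted cells and 1.1, 1.11 and 1.1 in controls.

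Ddit3 (ENSMUSG00000025408.15, chr10:127290774-127296288, plus strand) encodes CHOP, a C/EBP family factor induced downstream of ATF4 and known for its part in stress-induced death. It stood at 28.6, 36.4 and 37.8 FPKM in Skiv2l-deleted cells and at 13.2, 12.5 and 23.2 FPKM in controls. The groups did not overlap, and control 3 was the highest control, as it was for Atf4. Means were 34.3 ± 4.94 FPKM in Skiv2l-deleted cells and 16.3 ± 6.0 FPKM in controls (SD, n = 3 each), a ratio of 2.1 and a log2 fold change of 1.07 ± 0.24 (SE). This was the weakest of the 5 differences past the threshold. The call was lost when any library other than control 3 was left out, at log2 fold changes between 0.92 (without control 2) and 1.19 (without Skiv2l-deleted 1). Omitting Skiv2l-deleted 2 gave 1.02, Skiv2l-deleted 3 gave 1.0 and control 1 gave 0.95. Ddit3 overlaps Mars, the methionyl-tRNA synthetase gene, on the opposite strand. Mars stood at 46.9, 38.4 and 45.3 FPKM in Skiv2l-deleted cells and 29.4, 33.1 and 26.3 FPKM in controls, so reads shared across strands cannot be told apart. The second Ddit3 identifier (ENSMUSG00000116429.1) held at most 0.133 FPKM in Skiv2l-deleted cells and 0.299 FPKM in controls and was below the filter.

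Atf3 (ENSMUSG00000026628.13, chr1:191170296-191218039, minus strand), an early stress-induced bZIP factor, was rare. It stood at 0.583, 0.783 and 0.891 FPKM in Skiv2l-deleted cells and at 0.159, 0.127 and 0.219 FPKM in controls. The groups did not overlap at these low levels. Means were 0.752 ± 0.157 FPKM in Skiv2l-deleted cells and 0.168 ± 0.0468 FPKM in controls (SD, n = 3 each), a ratio of 4.47. The difference was 0.58 on log2(FPKM + 1), a scale on which low genes appear to change less than they do.

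Trib3 (ENSMUSG00000032715.9, chr2:152337422-152344032, minus strand) encodes a pseudokinase that is induced by ATF4 and CHOP and restrains them in turn. Its level was 17.5, 17.4 and 24.9 FPKM in Skiv2l-deleted cells and 2.33, 1.29 and 1.92 FPKM in controls. All Skiv2l-deleted libraries were far above all controls. Means of 19.9 ± 4.29 FPKM in Skiv2l-deleted cells and 1.85 ± 0.523 FPKM in controls (SD, n = 3 each) gave a ratio of 10.8, and the log2 fold change of 2.87 ± 0.20 (SE) ranked 2 of the 13539 genes tested.

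Chac1 (ENSMUSG00000027313.3, chr2:119351229-119354381, plus strand) encodes a gamma-glutamyl cyclotransferase that degrades glutathione. It stood at 4.51, 2.93 and 4.83 FPKM in Skiv2l-deleted cells and at 0.119, 0.178 and 0.19 FPKM in controls. It reached the filter through the Skiv2l-deleted libraries alone, and the groups did not overlap. For this gene of a single transcript, the values correspond to 13717, 9593 and 18947 aligned bases in Skiv2l-deleted cells and 383, 539 and 543 in controls, so the control level rests on little sequence. The ratio of means was 25.2, from 4.09 ± 1.01 FPKM in Skiv2l-deleted cells and 0.162 ± 0.038 FPKM in controls (SD, n = 3 each). The log2 fold change was 2.11 ± 0.19 (SE) with a pseudocount of 1 and 3.98 with a pseudocount of 0.1.

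Asns (ENSMUSG00000029752.12, chr6:7675169-7693254, minus strand) encodes asparagine synthetase, which makes asparagine from aspartate and glutamine. It stood at 27.5, 24.6 and 27.6 FPKM in Skiv2l-deleted cells and at 0.918, 1.43 and 2.17 FPKM in controls. The Skiv2l-deleted libraries were nearly level with each other and none of the 3 controls came near them. Means were 26.6 ± 1.68 FPKM in Skiv2l-deleted cells and 1.5 ± 0.629 FPKM in controls (SD, n = 3 each), a ratio of 17.7. Its log2 fold change of 3.49 ± 0.20 (SE) ranked 1 of 13539 among rises and 8 by absolute size. Leaving out each library in turn gave 3.31 to 3.67, all past the threshold.

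Cebpb (ENSMUSG00000056501.3, chr2:167688915-167690418, plus strand) encodes C/EBP-beta, a partner and target of ATF4 that is also a factor of the myeloid lineage. It stood at 0.736, 19.7 and 1.5 FPKM in Skiv2l-deleted cells and at 1.88, 0.768 and 9.41 FPKM in controls. Skiv2l-deleted 2 and control 3 were high, the other 4 libraries were low, and the groups overlapped. Means were 7.32 ± 10.7 FPKM in Skiv2l-deleted cells and 4.02 ± 4.7 FPKM in controls (SD, n = 3 each), and the log2 fold change of 0.25 ± 1.03 (SE) did not pass the threshold. Its sign turned when Skiv2l-deleted 2 was left out, to -0.85, when control 2 was left out, to -0.29, and when both Skiv2l-deleted 2 and control 3 were, to -0.11. Of the 16 myeloid markers, 13 had their highest levels in the same 2 libraries. The other 3 were S100a9, Ngp and Ltf. Ltf, a secondary granule gene, stood at 15.8, 2.74 and 0 FPKM in Skiv2l-deleted cells and 0, 18.5 and 2.84 FPKM in controls, and Ngp at 49.6, 29.7 and 0.156 FPKM in Skiv2l-deleted cells and 0.221, 58.3 and 25.2 FPKM in controls. The primary granule genes Elane, Mpo, Prtn3 and Ctsg summed to 17.6, 1538 and 10.4 FPKM in Skiv2l-deleted cells and 19.9, 19.1 and 794 FPKM in controls. Cebpa, which encodes a myeloid C/EBP factor, stood at 0.541, 12.1 and 0.293 FPKM in Skiv2l-deleted cells and 0.599, 0.193 and 5.38 FPKM in controls. The part of myeloid RNA in the level of Cebpb was not tested. Cebpb also overlaps Tmem189 on the opposite strand, which stood at 23.3, 26.2 and 20.9 FPKM in Skiv2l-deleted cells and 26.4, 20.2 and 31.7 FPKM in controls, so reads shared across strands cannot be told apart.

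Nupr1 (ENSMUSG00000030717.9, chr7:126623249-126630861, minus strand) encodes a small stress-induced chromatin protein. It stood at 0.612, 2.53 and 0.978 FPKM in Skiv2l-deleted cells and at 0.176, 0.0513 and 0.473 FPKM in controls. Skiv2l-deleted 2 was again the highest and control 3 the highest control, but the groups did not overlap. Means were 1.37 ± 1.02 FPKM in Skiv2l-deleted cells and 0.233 ± 0.216 FPKM in controls (SD, n = 3 each), a ratio of 5.88 and a difference of 0.88 on the log2(FPKM + 1) scale. On coverage scaled to FPKM the levels were 0.2, 0.847 and 0.384 in Skiv2l-deleted cells and 0.0784, 0.0499 and 0.46 in controls, which overlap, and the difference was 0.30. The ratio of FPKM to scaled coverage was 3.06, 2.98 and 2.55 in Skiv2l-deleted cells and 2.24, 1.03 and 1.03 in controls, so the separation of Nupr1 moves with the isoform lengths assigned.

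**Figure D3:**
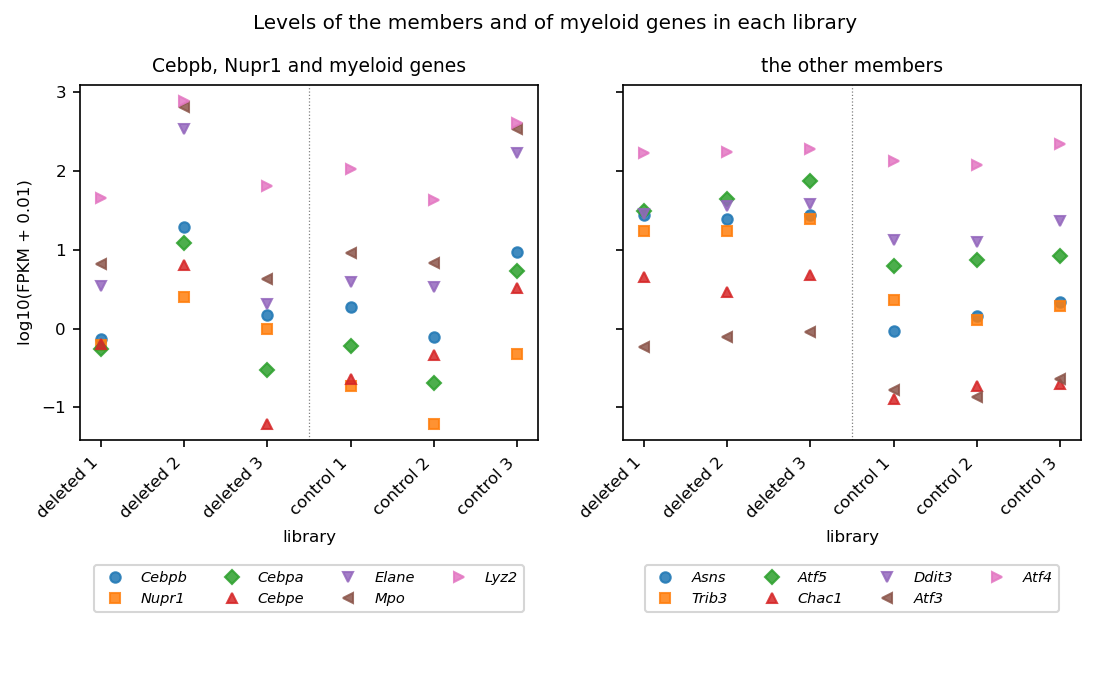
Levels in each library as log10(FPKM + 0.01), with Skiv2l-deleted libraries left of the dotted line and controls right of it. In the left panel Cebpb and the myeloid genes drawn are high in Skiv2l-deleted 2 and control 3. In the right panel the other members but Atf4 lie higher in all Skiv2l-deleted libraries than in any control.

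The order of mean FPKM differed between the groups. In Skiv2l-deleted cells it ran Atf4, Atf5, Ddit3, Asns, Trib3, Cebpb, Chac1, Nupr1 and Atf3. Neighbours overlapped in that order except Atf4 with Atf5, Ddit3 with Asns, and Chac1 with Nupr1. In controls it ran Atf4, Ddit3, Atf5, Cebpb, Trib3, Asns, Nupr1, Atf3 and Chac1, and neighbours overlapped except Atf4 with Ddit3, Ddit3 with Atf5, and Asns with Nupr1. Asns thus stood between Ddit3 and Trib3 in the order of Skiv2l-deleted cells and between Trib3 and Nupr1 in that of controls.

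Set against Atf4 in the same library, Asns reached 16.3%, 14.2% and 14.6% of the FPKM of Atf4 in Skiv2l-deleted cells and 0.68%, 1.21% and 0.987% in controls. Trib3 reached 10.4%, 9.98% and 13.2% in Skiv2l-deleted cells and 1.73%, 1.09% and 0.875% in controls. For Atf5 the shares were 18.3%, 25.7% and 40% in Skiv2l-deleted cells and 4.58%, 6.33% and 3.78% in controls. Ddit3 held to a narrow share within each group, at 17%, 20.9% and 20% in Skiv2l-deleted cells and 9.8%, 10.6% and 10.6% in controls. The shares of all 4 genes did not overlap between the groups, while Atf4 itself did. Control 3, highest of the controls in Atf4 and Ddit3, was thus level with control 2 in the ratio of Ddit3 to Atf4.

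The spread within groups also differed among members. The coefficient of variation of Asns was 6.32% in Skiv2l-deleted cells and 41.8% in controls, that of Atf4 was 5.99% in Skiv2l-deleted cells and 34.5% in controls, and that of Cebpb was 147% in Skiv2l-deleted cells and 117% in controls. Over the 6 libraries, on log2(FPKM + 1), Asns had a Pearson r of 0.99 with Chac1, 0.98 with Trib3, 0.96 with Atf5 and 0.91 with Ddit3, and of 0.45 with Atf4 and 0.12 with Cebpb. Atf4 came closest to Ddit3, at r = 0.75. These values describe 6 libraries in 2 groups and mostly restate the difference between genotypes.

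Most other ATF4 targets were higher in Skiv2l-deleted cells as well. Their lists were chosen with earlier results of these data known, so the counts and p-values below are a description and no independent support. Of 53 such genes in 4 lists (amino acid synthesis, transport, tRNA synthetases and stress effectors), 47 were tested, of which 30 rose, 1 fell and 16 did not pass (limma). Their median log2 fold change was 0.77, beside 0.06 for all genes tested, and 43 of the 47 lay above 0. Over all genes tested, 4.97% rose and 3.87% fell. The groups did not overlap and Skiv2l-deleted cells were higher in 41 of the 53, untested genes included. The same held for 19.9% of all tested genes and for 13.3% of the 28354 genes listed above 0 in any library. Of the 47, 5 had all controls below 1 FPKM and so reached the filter through the Skiv2l-deleted libraries alone (Cth, Slc7a3, Slc6a9, Slc1a4 and Bbc3), and all 5 are among the 30. The number past the threshold in either direction, 31 with all libraries, was 10 when either Skiv2l-deleted 1 or Skiv2l-deleted 3 was left out, 15 without control 1, 23 without control 2, 26 without Skiv2l-deleted 2 and 31 without control 3. In the 4 libraries other than Skiv2l-deleted 2 and control 3 it was 36.

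In the list of amino acid synthesis and one-carbon metabolism, 8 of 12 tested genes rose and 0 fell, with a median log2 fold change of 1.14. At an unadjusted p below 0.05 (limma) 10 were higher and 0 lower. Pycr1, which makes proline, averaged 6.63 ± 0.86 FPKM in Skiv2l-deleted cells and 1.13 ± 0.313 FPKM in controls (log2 fold change 1.85 ± 0.17, limma adjusted p = 0.00429). Phgdh, the first enzyme of serine synthesis, averaged 173 ± 26.4 FPKM in Skiv2l-deleted cells and 70.8 ± 7.02 FPKM in controls (1.27 ± 0.14, limma adjusted p = 0.00711). Bcat1, a branched-chain aminotransferase, and Gpt2, an alanine aminotransferase, each rose by 1.60 on the log2 scale (limma adjusted p = 0.00429 and 0.00462). These 4 calls held when any single library was left out. Got1, a cytosolic aspartate aminotransferase, averaged 15.7 ± 0.722 FPKM in Skiv2l-deleted cells and 15.6 ± 2.11 FPKM in controls (0.02, limma adjusted p = 0.954). Its promoter also holds a CARE match.

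Of 10 amino acid transporters, 7 rose and 1 fell, with a median log2 fold change of 0.95. Slc7a3, a cationic amino acid transporter, stood at 4.49, 3.31 and 4.51 FPKM in Skiv2l-deleted cells and 0.162, 0.153 and 0.308 FPKM in controls (2.07 ± 0.16, limma adjusted p = 0.00365). Slc1a4, a neutral amino acid transporter, averaged 4.67 ± 0.776 FPKM in Skiv2l-deleted cells and 0.597 ± 0.0908 FPKM in controls (1.82, limma adjusted p = 0.00429). Both calls held when any single library was left out. All controls of Slc7a3, Slc1a4 and Slc6a9 were below 1 FPKM, so these genes were tested only because they are high in Skiv2l-deleted cells, and their p-values are no independent support. Slc6a9, a glycine transporter, stood at 3.74, 1.86 and 4.81 FPKM in Skiv2l-deleted cells and was listed at 0.0885, 0.133 and 0 FPKM in controls (2.0 ± 0.27, limma adjusted p = 0.00958, and 0.0529 without Skiv2l-deleted 1). Slc7a5, the light chain of a large neutral amino acid transporter, rose by 1.39 ± 0.21 (limma adjusted p = 0.0123, 0.0573 without Skiv2l-deleted 1 and 0.0582 without Skiv2l-deleted 3). The member of the list that fell was Slc1a5, a glutamine transporter, named here after its value was seen. It stood at 178, 244 and 207 FPKM in Skiv2l-deleted cells and 411, 360 and 460 FPKM in controls (-0.97 ± 0.15, limma adjusted p = 0.0147, at most 0.0689 over the 6 omissions, of which 3 lost the call). Slc7a11, the cystine transporter, did not pass (-0.18, limma adjusted p = 0.486).

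Of 13 genes of tRNA charging, made up of aminoacyl-tRNA synthetases and the tRNA exporter Xpot, 8 rose and 0 fell, with a median log2 fold change of 0.56. At an unadjusted p below 0.05 (limma) 12 were higher and 0 lower. Sars averaged 62.0 ± 5.46 FPKM in Skiv2l-deleted cells and 31.9 ± 5.08 FPKM in controls (0.94, limma adjusted p = 0.0122). Xpot rose by 0.84, Iars by 0.79 and Eprs by 0.77 (limma adjusted p = 0.0187, 0.0182 and 0.0252). Each of these 4 calls was lost on omitting Skiv2l-deleted 1, Skiv2l-deleted 3 or control 1, where the limma adjusted p reached 0.0637 for Sars, 0.0889 for Xpot, 0.0915 for Iars and 0.109 for Eprs. Their log2 fold changes in those fits were 0.67 to 0.96.

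Among stress effectors 12 of 17 genes were tested, of which 7 rose and 0 fell, with 1 lower at an unadjusted p below 0.05, and the median log2 fold change was 0.70. Ddit4, an inhibitor of mTORC1 signalling, averaged 90.8 ± 23.4 FPKM in Skiv2l-deleted cells and 27.1 ± 10.7 FPKM in controls (1.75 ± 0.32, limma adjusted p = 0.0221, 0.0908 without Skiv2l-deleted 1 and 0.0931 without Skiv2l-deleted 3). Vegfa, an angiogenic growth factor, averaged 37.4 ± 6.01 FPKM in Skiv2l-deleted cells and 12.6 ± 2.64 FPKM in controls (1.5, limma adjusted p = 0.00807), and the call held in all 6 omissions. Bbc3, which encodes the death-promoting protein PUMA and is also a p53 target, averaged 4.56 ± 1.25 FPKM in Skiv2l-deleted cells and 0.855 ± 0.157 FPKM in controls (1.56, limma adjusted p = 0.00929, and 0.0509 without Skiv2l-deleted 3). It too reached the filter through the Skiv2l-deleted libraries alone. Jdp2, a bZIP repressor, rose by 1.56 ± 0.36 (limma adjusted p = 0.0415), a call that held without control 3 but was lost in each of the other 5 omissions, at 0.106 to 0.131. Ppp1r15a, the stress-induced eIF2 phosphatase subunit, did not pass (0.39, limma adjusted p = 0.51), nor did the ER protein gene Herpud1 (-0.46, limma adjusted p = 0.169).

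**Figure D4:**
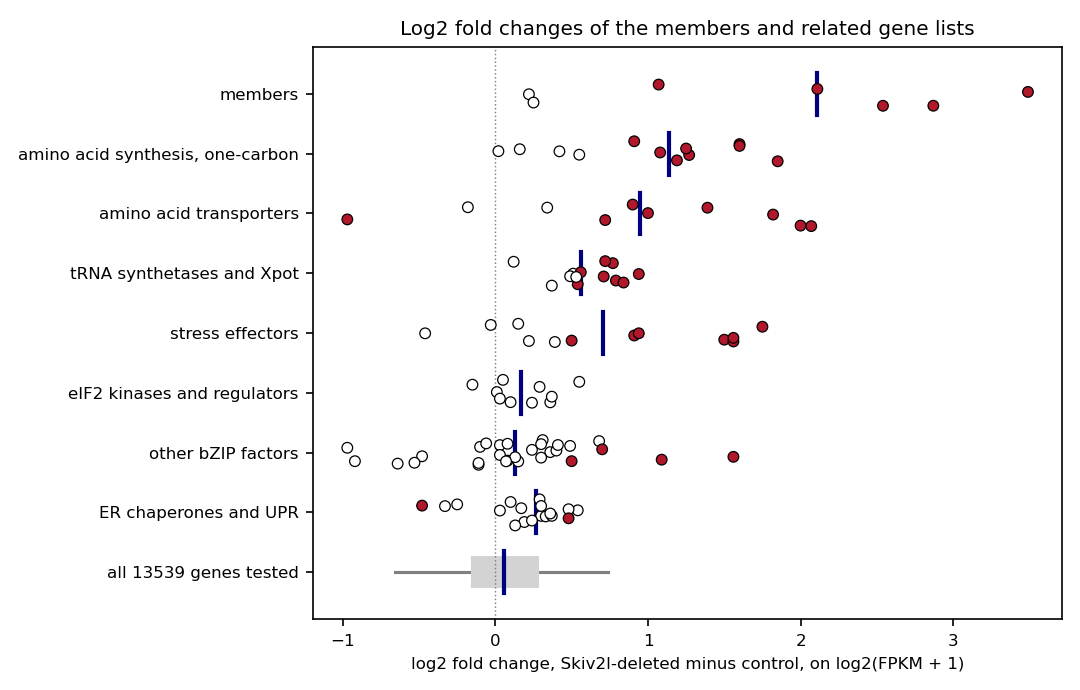
Log2 fold change on log2(FPKM + 1), Skiv2l-deleted minus control, for each tested gene of the members and of related gene lists, with filled points past limma's threshold and a bar at each list's median. For all genes the box spans percentiles 25 to 75 and the line percentiles 5 to 95. The target lists sit mostly above 0, while the lists of eIF2 kinases, other bZIP factors and ER chaperones have medians of 0.17, 0.13 and 0.26.

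The genes that act upstream did not pass with all 6 libraries. Of 10 eIF2 kinases and regulators, 0 passed limma's threshold and 2 were higher at an unadjusted p below 0.05, with a median log2 fold change of 0.17. Eif2ak4, the kinase GCN2 that senses uncharged tRNA, averaged 13.1 ± 0.411 FPKM in Skiv2l-deleted cells and 10 ± 1.08 FPKM in controls. It differed by 0.36 ± 0.12 on the log2 scale (limma adjusted p = 0.119). It stayed short of the threshold in 5 of the 6 omissions and passed in the other. Eif2ak2, the double-stranded RNA kinase PKR, averaged 16.4 ± 1.3 FPKM in Skiv2l-deleted cells and 11.2 ± 3.23 FPKM in controls (0.55, limma adjusted p = 0.151). Eif2ak3, the ER-stress kinase PERK, differed by 0.10 and Eif2ak1, the heme-regulated kinase HRI, by -0.15 (limma adjusted p = 0.672 and 0.394). Kinase activity was not measured.

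Of 46 other bZIP genes 29 were tested, of which 4 rose and 0 fell, with a median log2 fold change of 0.13. At an unadjusted p below 0.05 (limma) 5 were higher and 2 lower. The 4 that rose were Jdp2, Maf (1.09, limma adjusted p = 0.0396), Bach1 (0.70, 0.0465) and Nfe2l1 (0.50, 0.0435). None of them held in more than 1 of the 6 omissions, where their limma adjusted p reached 0.131 for Jdp2, 0.145 for Maf, 0.176 for Bach1 and 0.182 for Nfe2l1, and the count over the list was 0 on omitting control 2 or any of the 3 Skiv2l-deleted libraries (6 or 7 at an unadjusted p below 0.05). Cebpg, a dimer partner of ATF4, averaged 28.6 ± 4.21 FPKM in Skiv2l-deleted cells and 25.7 ± 3.65 FPKM in controls (0.15, limma adjusted p = 0.615). Bach2 and Atf6, named here after their values were seen, differed by -0.97 and -0.48 (limma adjusted p = 0.0762 and 0.0906). In the 4 libraries other than Skiv2l-deleted 2 and control 3 both were called lower, at -1.24 and -0.63. Of 18 ER chaperones and targets of the unfolded protein response factors XBP1 and ATF6, 1 rose and 1 fell, with a median log2 fold change of 0.26. Canx, the chaperone calnexin, differed by 0.48 (limma adjusted p = 0.0369) and Syvn1, an ER ubiquitin ligase, by -0.48 (0.0451). Without control 3 the call of Canx held, and it was lost in the other 5 omissions (up to 0.163), while that of Syvn1 was lost in all 6 (up to 0.18). Hspa5, which encodes the chaperone BiP, averaged 204 ± 66.5 FPKM in Skiv2l-deleted cells and 166 ± 47.5 FPKM in controls (0.29, limma adjusted p = 0.579). Of 8 tested plasma cell markers, Igha, Jchain and Sdc1 fell, Mzb1 rose and 4 did not pass (limma), and the part of plasma cell RNA in these ER genes was not tested.

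Close relatives of the members did not follow them as a set. Of 10 paralogs 6 were tested, of which Jdp2 rose, Trib2 fell and the median log2 fold change was -0.03. Trib2, a pseudokinase related to Trib3, stood at 7.33, 11.3 and 8.04 FPKM in Skiv2l-deleted cells and at 23.8, 23.4 and 20.1 FPKM in controls. Each Skiv2l-deleted library was below each control, at a log2 fold change of -1.26 ± 0.17 (limma adjusted p = 0.01, 0.0505 without Skiv2l-deleted 1 and 0.055 without Skiv2l-deleted 3). Trib1 averaged 4.05 ± 0.518 FPKM in Skiv2l-deleted cells and 3.71 ± 1.16 FPKM in controls (0.13, limma adjusted p = 0.771). Chac2, the constitutive relative of Chac1, averaged 1.76 ± 0.362 FPKM in Skiv2l-deleted cells and 2.78 ± 0.434 FPKM in controls (-0.46, limma adjusted p = 0.15).

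The enzymes next to Asns and Chac1 in metabolism were also compared. Of 10 tested genes that make or use asparagine and aspartate, 2 rose and 0 fell, with a median log2 fold change of 0.33. At an unadjusted p below 0.05 (limma) 6 were higher and 1 lower. Nars, which charges asparagine onto its tRNA, averaged 71.2 ± 3.51 FPKM in Skiv2l-deleted cells and 42.8 ± 1.47 FPKM in controls (0.72 ± 0.09, limma adjusted p = 0.00935, 0.0573 without Skiv2l-deleted 1 and 0.059 without Skiv2l-deleted 3). Ass1, which joins aspartate to citrulline, averaged 53.1 ± 5.74 FPKM in Skiv2l-deleted cells and 24.9 ± 5.98 FPKM in controls (1.08, limma adjusted p = 0.0163). That call was lost without Skiv2l-deleted 1 or 3 or control 1 or 2, at up to 0.0736. Asrgl1, an asparaginase, averaged 13.8 ± 1.17 FPKM in Skiv2l-deleted cells and 18.6 ± 0.164 FPKM in controls (-0.41, limma adjusted p = 0.0668).

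In glutathione synthesis and cleavage 9 of 11 genes were tested, of which 0 rose and 1 fell, with a median log2 fold change of 0.15. At an unadjusted p below 0.05 (limma) 1 was higher and 2 lower. The one that fell was Gclc, the catalytic subunit of the first enzyme of glutathione synthesis, at 36.4, 43.7 and 37.5 FPKM in Skiv2l-deleted cells and 84.7, 84.4 and 64.5 FPKM in controls (-0.96 ± 0.14, limma adjusted p = 0.0125). Its call was lost on omitting Skiv2l-deleted 1 (0.0653), Skiv2l-deleted 3 (0.0649) or control 1 (0.0523). Its partner Gclm averaged 6.84 ± 1.28 FPKM in Skiv2l-deleted cells and 5.51 ± 0.657 FPKM in controls (0.26, limma adjusted p = 0.383).

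The 5 genes outside the members whose pattern over the 6 libraries was most like that of Asns, by Pearson r on log2(FPKM + 1) among genes tested, were Mgmt (0.9985), Pycr1 (0.9965), Spsb1 (0.9960), Gm2614 (0.9955) and Ppic (0.9952). Likeness of pattern is not likeness of size. Mgmt, a DNA repair methyltransferase, stood at 1.49, 1.38 and 1.49 FPKM in Skiv2l-deleted cells and 0.544, 0.579 and 0.645 FPKM in controls. Gm2614, a predicted gene, stood at 35.7, 35.4 and 35.6 FPKM in Skiv2l-deleted cells and 27.8, 27.4 and 28.6 FPKM in controls. By the same measure, added after the values of Cebpb were seen, the gene most like Cebpb was Mpeg1 (0.9982), a macrophage gene. It stood at 3.2, 62.2 and 5.13 FPKM in Skiv2l-deleted cells and 7.17, 3.11 and 26.1 FPKM in controls.

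**Figure D5:**
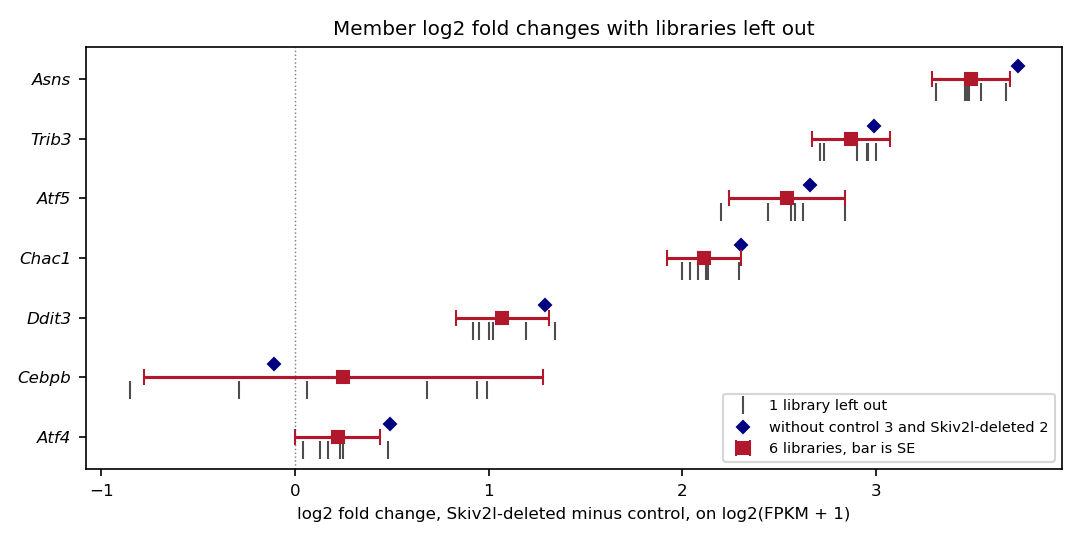
Log2 fold change of the 7 tested members, Skiv2l-deleted minus control, 1 row per gene. Squares with SE bars use all 6 libraries, ticks leave out 1 library each and diamonds leave out Skiv2l-deleted 2 and control 3. Asns stays between 3.31 and 3.73 throughout, whereas Cebpb lies on both sides of 0.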

How the data were processed

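The authors deposited 1 gene table per library with FPKM, TPM and mean coverage, per the file headers. Per the submitters' processing notes, the genome build is GRCm38. No source used here names the aligner or quantification tool or says whether strand was used. The TPM and coverage values deposited by the authors served as alternatives. Lines of a repeated identifier were summed. Of 54752 identifiers, 53861 matched GENCODE M21 by version, of which 53852 had the same coordinates.

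The 13539 genes reaching 1 FPKM in 3 or more of the 6 libraries were fitted with limma 3.58.1 in R 4.3.3 (lmFit, eBayes with trend) on log2(FPKM + 1), genotype as the only term, and p-values were adjusted by Benjamini-Hochberg over all of them (threshold 0.05). The script was tested on simulated data. The tables hold no read counts. Replicates are separate labelled samples, and the labels do not say that each is a separate mouse, so p-values measure the spread between samples. Coverage was scaled by each library's ratio of FPKM to coverage in single-transcript genes, and aligned bases follow from that ratio.

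Members and gene lists were chosen with earlier results of these data known. Besides all members, the rule named up to 4 genes with the largest absolute fold change past the threshold per list, the 5 genes most like Asns, the tested relatives and neighbours of members, Skiv2l and Cd79a. Other genes were named for their known role. Cd79a stood at 367, 368 and 441 FPKM in Skiv2l-deleted libraries and 726, 640 and 739 FPKM in controls. It was called lower, at a log2 fold change of -0.84 ± 0.12 (SE, limma adjusted p = 0.0123).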

Additional observations from a re-analysis of the deposited data

How the results depend on the processing

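Over 18 alternatives, Asns, Trib3, Atf5 and Chac1 kept their direction and side of the threshold in all, and 4 to 6 members passed in place of 5. The set that passed was not always the same. With no filter 5 of 10 identifiers passed without Ddit3 (limma adjusted p = 0.122), and on TPM 6 of 9 passed. Each of these counts includes Atf3 or Nupr1. The 18 alternatives reuse the libraries that chose the members, and Chac1 reached the filter through the Skiv2l-deleted libraries alone. They show dependence on the processing and are no independent support. The log2 fold change of Cebpb ranged from -0.85 to 0.99 with each library left out, and its reversed values were -0.85 without Skiv2l-deleted 2, -0.29 without control 2 and -0.11 in the 4 libraries other than Skiv2l-deleted 2 and control 3. In place of 1197 genes, 512 changed with no filter, 1802 in the 4 libraries, 2620 with a term for the 2 libraries that stand apart, and 193 to 1767 with each library left out. In place of 31 other ATF4 targets, 17 changed with no filter and 10 to 31 with each library left out. In place of 4 other bZIP factors, 0 changed with no filter (10 at an unadjusted p below 0.05, limma), 1 on TPM, 2 with median scaling and 0 to 4 with each library left out. Without control 3 the 4 were 2 higher and 2 lower, and the 4 libraries gave 3 higher and 2 lower. In place of 2 ER genes, 0 changed with no filter, on TPM, with no trend (4 each at an unadjusted p below 0.05, limma) and in the 4 libraries (5), 1 with median scaling and on scaled coverage, and 0 to 1 with each library left out. The cause was not tested. The term for the libraries that stand apart, scaled coverage and the fit without immunoglobulin segments were chosen after seeing the data.

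Replicate numbers showed no pairing of the libraries in this check, which cannot exclude one. Skiv2l-deleted 2 and control 3, which stand apart and carry different numbers, correlated at 0.56 and weigh on the other values. Same-numbered libraries had correlations of their deviations of 0.09, -0.43 and -0.35, and libraries did not correlate best with their own number. A replicate block gave 365 genes, 4 members, 15 other ATF4 targets, 1 other bZIP factor and 0 ER genes (3 at an unadjusted p below 0.05, limma). Atf3 and Nupr1 were below the filter, the control level of Chac1 rests on 383 to 543 aligned bases, and on a pseudocount of 0.1 the difference was 1.67 for Atf3 and 2.13 for Nupr1.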
